A study of Homo sapiens with 12 samples.

Results

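IFNG, its receptor chains IFNGR1 and IFNGR2, the receptor kinases JAK1 and JAK2, the transcription factor IRF1 and the signalling brake SOCS1 were followed through the transcriptome of YT cells that carried different forms of the Fc receptor CD16. The 7 genes were chosen by symbol from the 17589 genes of the table, each of them was listed there, and all 7 passed the filter on low counts. IFNG and SOCS1 passed that filter through the FR1 and FR2 libraries and IFNGR2 through the CTRL and hnCD16 libraries, so the number that passed says nothing about the members. YT is a human NK-like lymphoma line. All 4 groups were transduced with lentivirus and sorted for eGFP, and none was labelled as stimulated. CTRL received eGFP alone, hnCD16 a high-affinity, cleavage-resistant CD16, FR1 the fusion hnCD16-2B4-DAP10-CD3ζ and FR2 the fusion hnCD16-DAP10-CD3ζ, with the receptors driven by a constitutive promoter. Each group had 3 libraries, 12 in all, and the labels do not say that these came from separate cultures, so p-values measure the spread between these libraries, which may be technical.

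IFN-γ is the cytokine by which activated NK cells and T cells act on macrophages and on antigen presentation. It binds a receptor of IFNGR1, the ligand-binding chain that holds JAK1, and IFNGR2, the signalling chain that holds JAK2. The signal of the kinases acts through GAS elements in DNA and switches on early targets such as IRF1, which in turn drives later genes. SOCS1 is induced by the same signal and inhibits the kinases, which closes a feedback loop. In lymphocytes a low level of IFNGR2 is known as a way in which cells that make IFN-γ respond little to it.

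The libraries held 17714600 to 18729053 counts, so that 3 counts corresponded to 0.160 to 0.169 CPM (counts scaled to library size) before TMM factors were applied. The cell line label was checked against marker lists before the members were compared. The summed CPM of 15 NK cell markers lay between 37.3 and 43.4 over the CTRL and hnCD16 libraries, and between 4716 and 5047 over those of FR1 and FR2. Among them, KLRF1 and TBX21 had at most 3 counts, taken as the floor, in every CTRL library, NCAM1, NCR1 and KLRF1 in every hnCD16 library, and KLRF1 and TYROBP in every FR1 and FR2 library. T cell markers went the other way, with 10 of 12 in the table and sums of 766 to 889 over the CTRL and hnCD16 libraries against 136 to 177 over those of FR1 and FR2, where CD3D, CD4, CD8A, CD8B and CD6 were at that floor. Of the markers tested, 10 of 13 NK markers rose and 1 fell, and 9 of 10 T cell markers fell and 1 rose, both for FR1 against hnCD16 and for FR2 against CTRL. Of all genes tested, 18.7% rose and 19.6% fell in each comparison. Tested markers at the floor in a group passed the filter on low counts through other groups, so their direction was set by it. The NK marker that fell was NCR3, at means of 5.40 CPM in CTRL and 5.58 in hnCD16 against 0.825 in FR1 and 0.131 in FR2, while KLRD1 stayed between 11.7 and 14.5 CPM in all groups. The T cell marker that rose was CD28, at 92.4 CPM in FR1 and 119 in FR2 against 3.18 in CTRL and 3.09 in hnCD16, which made up most of the T cell sum in FR1 and FR2. GZMB alone, at 2780 CPM in FR1 and 2557 in FR2, made up most of the NK sum. B cell markers summed to 9.19 to 14.7 in CTRL and hnCD16 and to 38.3 to 47.4 in FR1 and FR2, and myeloid markers to 2.85 to 4.13 and to 5.67 to 10.3. The B cell sum rested on PAX5, at 40.0 CPM in FR1 and 46.3 in FR2, while CD79A and CD79B fell for FR1 against hnCD16 and for FR2 against CTRL. CD22 was at the floor in every group, as were CD14, MPO and S100A8. The CTRL and hnCD16 libraries thus went against their label as an NK-like line, with most NK markers low and most T cell markers high. NCR3, KLRD1 and CD28 were among the exceptions, and FCER1G and TYROBP did not separate the groups in the direction of the NK sum. Single markers were named after their values were seen. Every difference between these 6 libraries and the 6 FR1 and FR2 libraries moved with these markers, and the part of cell identity in the differences was not tested and cannot be told apart from the part of the receptors. In bulk RNA, fewer cells of a type and less RNA per cell cannot be told apart either.

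IFNG, the cytokine itself, was listed in every library but was almost without reads in 6 of the 12 libraries. Its counts were 0, 1 and 1 in CTRL, 1, 2 and 0 in hnCD16, 4089, 4478 and 3965 in FR1, and 4011, 3991 and 3917 in FR2. No library of FR1 or FR2 came near one of CTRL or hnCD16, and the FR1 and FR2 levels lay close together. In CPM the mean was 241 ± 16.6 (SD, n = 3) in FR1 and 225 ± 0.911 in FR2, and both CTRL and hnCD16 stood under the level of 3 counts. From the summed counts, 12532 in FR1 against 2 in CTRL, the FR1 level was 7176 times that of CTRL, with a 95% counting interval of 1986 to 59264. The ratio of FR2 to CTRL was 6704 (1856 to 55367), that of FR1 to hnCD16 4468 (1529 to 21669) and that of FR2 to hnCD16 4174 (1428 to 20244). Such intervals cover counting error only, and their width comes from the 2 or 3 reads in the lower group. IFNG passed the threshold for differentially expressed genes (DEGs), that is a log2 fold change of 1 or more in either direction and an adjusted p of 0.05 or less by edgeR's quasi-likelihood test, in each of the 4 comparisons, with adjusted p from 3.1e-20 to 4.11e-20. FR1 and FR2 differed by a log2 fold change of 0.10 with an SE of 0.0601, which did not pass (adjusted p = 0.226 by edgeR), and hnCD16 did not pass against CTRL either (adjusted p = 0.717 by edgeR).

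**Figure D1:**
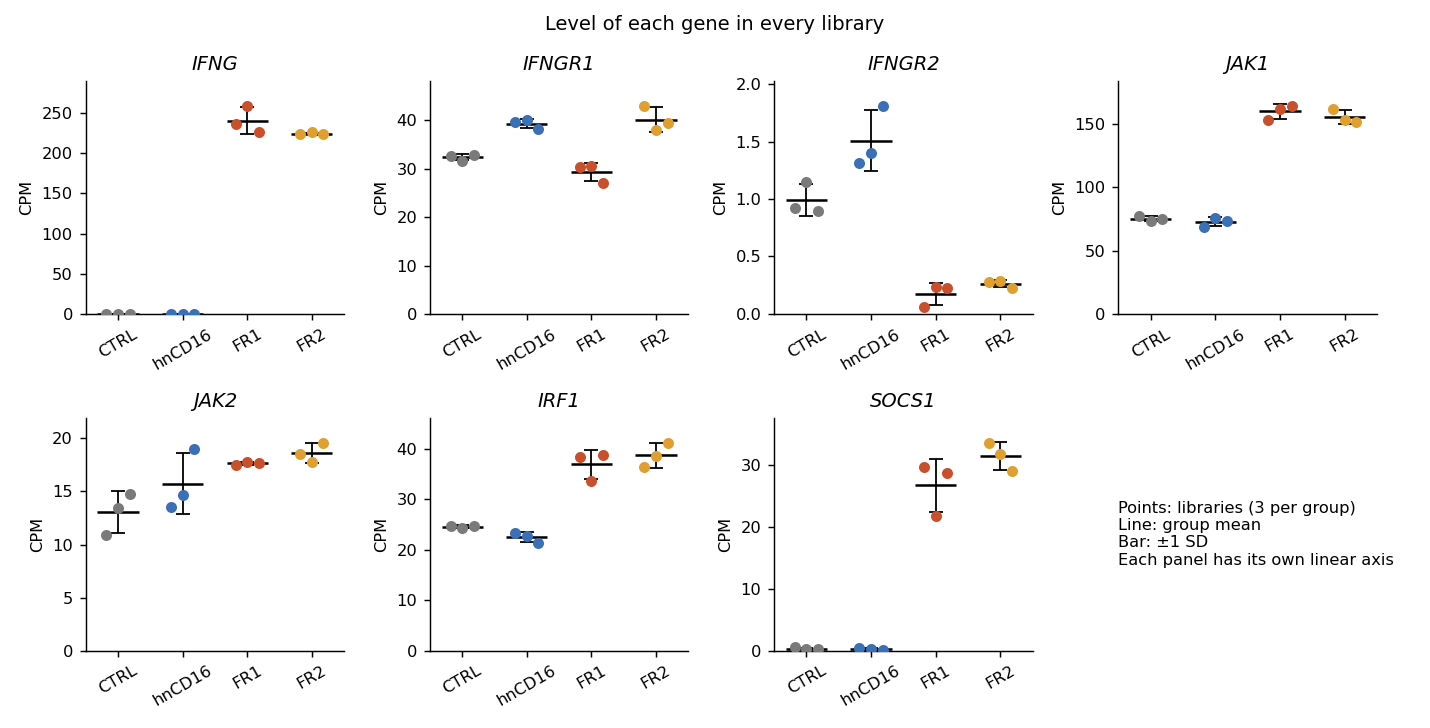
CPM of the 7 genes in each library, by group, with the mean as a line and ±1 SD as a bar and a linear axis from 0 in each panel. IFNG and SOCS1 lie near 0 in CTRL and hnCD16 and at means of 241 and 26.7 CPM in FR1, IFNGR2 falls from 1.51 CPM in hnCD16 to 0.173 in FR1, and IFNGR1 has its lowest mean in FR1.

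The IFNG gene lies on the minus strand of chromosome 12 at chr12:68154768-68159740 (GRCh38, GENCODE v44), and the table holds a single transcript of it, so no change of isoform could be read. GENCODE places the antisense gene IFNG-AS1 over the whole of IFNG on the opposite strand. IFNG-AS1 is not listed in the table, and the sources used here do not state that counting used strand, so reads of the antisense RNA cannot be told apart from those of IFNG. The 250 bases before the IFNG start (RefSeq, GRCh38.p14, minus strand, chr12:68159741-68159990) are shown because IFNG, SOCS1 and IRF1 were all higher in FR1 and FR2. Capitals mark the letters TTCNNNGAA, the form of a GAS element.

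IFNG: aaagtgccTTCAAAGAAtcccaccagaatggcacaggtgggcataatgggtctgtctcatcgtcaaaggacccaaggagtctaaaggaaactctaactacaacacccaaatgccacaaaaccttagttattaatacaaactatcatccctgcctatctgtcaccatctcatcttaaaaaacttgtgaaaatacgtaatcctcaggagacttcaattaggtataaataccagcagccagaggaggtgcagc

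A single match, TTCAAAGAA, starts 242 bases before the IFNG start, and the letters TATAAA start 31 bases before it. TTCNNNGAA, which reads the same on both strands, occurred in 6.57% of 35116 RefSeq promoter windows of this length, and TATAAA on either strand in 10.7%. The letters GTGTGA, a T-box motif named for the family of TBX21, were searched as well and occurred on either strand in 9.9%. The IFNG window did not hold them. Among the members only an IFNGR1 window did, 94 bases before its start. These motifs were chosen after values and sequences had been seen, and a match is a description of letters, not of a bound site.

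The receptor chains differed in the size of their changes, since IFNGR2 fell past the fold threshold in both fusion groups and IFNGR1 stayed under it. IFNGR2, the chain that limits signalling, was 18, 23 and 18 counts in CTRL, 24, 26 and 34 in hnCD16, 1, 4 and 4 in FR1, and 5, 5 and 4 in FR2. All 6 libraries of FR1 and FR2 were below all 6 of the other groups. The fitted log2 fold change was −2.47 (SE 0.395, adjusted p = 1.77e-05 by edgeR) for FR1 against CTRL and −1.88 (SE 0.358, adjusted p = 0.000117 by edgeR) for FR2 against CTRL. Against hnCD16 it was −3.08 (SE 0.367, adjusted p = 5.14e-07 by edgeR) in FR1 and −2.48 (adjusted p = 2.21e-06 by edgeR) in FR2. Expressed from the summed counts, IFNGR2 was 5.72-fold lower in FR1 than in CTRL with a counting interval of 2.82 to 13.1, and 8.73-fold lower than in hnCD16 with an interval of 4.38 to 19.7. In FR2 it was 3.75-fold (2.07 to 7.27) and 5.71-fold (3.22 to 10.9) lower. With 9 reads in FR1 and 14 in FR2 over 3 libraries, a difference between the fusions was not detectable at this depth (FR2 over FR1 1.53-fold, interval 0.616 to 4, adjusted p = 0.466 by edgeR). CTRL and hnCD16 did not overlap, at means of 0.989 and 1.51 CPM, but the log2 fold change of 0.60 did not pass (adjusted p = 0.0593 by edgeR).

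IFNGR2 lies on the plus strand of chromosome 21 (chr21:33403413-33479348, GRCh38), and GENCODE has TMEM50B on the opposite strand over part of it. TMEM50B had 1035 to 1432 counts in every library and was not lower in FR1 or FR2 than in CTRL. The table divides IFNGR2 into 3 entries, of which the reference transcript NM_005534 is listed at 0 in all 6 FR1 and FR2 libraries and at 2.83 to 24.1 estimated counts in the others. A second copy of the same entry took up to 24.3 counts in hnCD16 and 4.21 in an FR2 library, so the division among the entries rests on few reads and is not firm.

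IFNGR1, which lies at chr6:137197483-137219449 on the minus strand, stayed under the fold threshold in every comparison. It was 32.7, 31.7 and 32.9 CPM in CTRL, 39.7, 40.0 and 38.3 in hnCD16, 30.3, 30.6 and 27.1 in FR1, and 43.0, 38.1 and 39.4 in FR2. The order of the means was FR2, hnCD16, CTRL and FR1. FR2 and hnCD16 did not differ beyond their spread (log2 fold change 0.03, adjusted p = 0.65 by edgeR), whereas hnCD16 stood 0.28 above CTRL (adjusted p = 0.00153 by edgeR) and FR1 0.15 below CTRL on the log2 scale (adjusted p = 0.042 by edgeR). Between the fusions, IFNGR1 was the single member with an adjusted p under the threshold, lower in FR1 than in FR2 by a log2 fold change of −0.45 (SE 0.0622, adjusted p = 3e-05 by edgeR), with no overlap of the libraries. It was also lower in FR1 than in hnCD16 (−0.42, SE 0.0621, adjusted p = 6.49e-06 by edgeR) and higher in FR2 than in CTRL (0.31, SE 0.0608, adjusted p = 0.000162 by edgeR). Each of these stayed under the fold threshold. Between 91.4% and 96.6% of IFNGR1 reads were assigned to transcript NM_000416 in each library.

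Levels of the chains were compared per transcript length, in TPM. IFNGR1 stood at 23.8 ± 1.44 TPM in FR1 and 33.2 ± 2.46 in FR2, against 30.9 ± 1.56 in CTRL and 33.6 ± 0.525 in hnCD16 (SD, n = 3). IFNGR2 stood at 0.133 ± 0.0723, 0.24 ± 0.0346, 1.17 ± 0.167 and 1.62 ± 0.445 TPM in the same order. IFNGR1 thus exceeded IFNGR2 in every library. The TPM ratio of IFNGR1 to IFNGR2 was 30.3, 23.3 and 26.7 in CTRL, 24.5, 24.8 and 15.9 in hnCD16, 484, 147 and 124 in FR1, and 163, 142 and 116 in FR2. The groups CTRL and hnCD16 overlapped, as did FR1 and FR2, and the former pair did not overlap with the latter. The value of 484 belongs to the FR1 library with 1 read of IFNGR2.

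**Figure D2:**
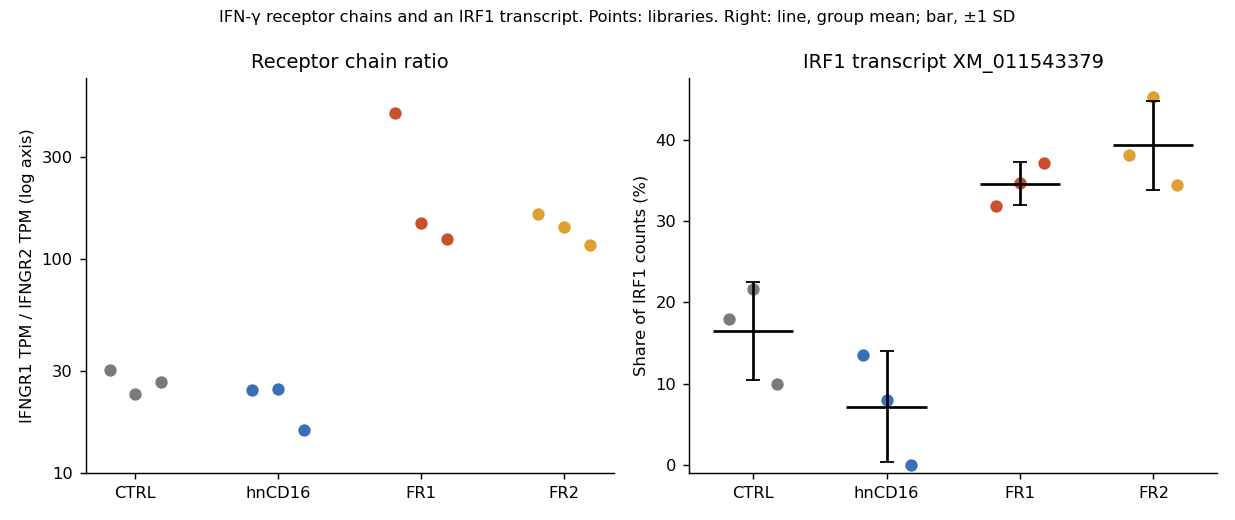
Left, TPM of IFNGR1 over TPM of IFNGR2 in each library on a log axis; right, the share of IRF1 counts assigned to transcript XM_011543379 in each library, with the mean as a line and ±1 SD as a bar. The ratio is 15.9 to 30.3 in CTRL and hnCD16 and 116 to 484 in FR1 and FR2, and the share is 0% to 21.7% against 31.9% to 45.3%.

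Of the kinases, JAK1 rose in both fusion groups to just past the fold threshold, and JAK2 stayed under it. JAK1, the kinase bound to IFNGR1 and shared with type I interferon and common γ-chain receptors, was 77.5, 73.5 and 74.5 CPM in CTRL, 68.9, 76.0 and 73.4 in hnCD16, 153, 162 and 164 in FR1, and 162, 153 and 151 in FR2. CTRL and hnCD16 overlapped, FR1 and FR2 overlapped, and every library of the latter groups was above every library of the former. The log2 fold change was 1.09 (FR1) and 1.05 (FR2, SE 0.0525) against CTRL and 1.13 (FR1, SE 0.0528) and 1.09 (FR2) against hnCD16, with adjusted p of 3.06e-12 for FR2 against CTRL and 1.08e-12 for FR1 against hnCD16 by edgeR. These lie just past the fold threshold, and against CTRL they lay under it when libraries were scaled by their total counts alone (0.89 in FR1 and 0.92 in FR2) or when TPM was tested with limma (0.81 to 0.86). Scaling by total counts moved the median log2 fold change of all genes to −0.22 for FR1 and −0.17 for FR2 against CTRL, from −0.03 and −0.04 with TMM. FR1 and FR2 did not differ in JAK1 (0.04, adjusted p = 0.599 by edgeR), nor did hnCD16 and CTRL (−0.05, adjusted p = 0.532 by edgeR). Most JAK1 reads in each library were divided between NM_001321856 and NM_002227, and NM_001321857 took up to 15.9%. The gene spans chr1:64833223-65067754 on the minus strand.

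JAK2, the kinase bound to IFNGR2 (chr9:4984390-5129948, plus strand), was 10.9, 13.4 and 14.8 CPM in CTRL, 13.5, 14.7 and 19.0 in hnCD16, 17.5, 17.8 and 17.7 in FR1, and 18.5, 17.8 and 19.6 in FR2. The CTRL libraries were the lowest group and the hnCD16 libraries spread over the range of both CTRL and the fusion groups. Against CTRL the log2 fold change was 0.44 in FR1 (adjusted p = 0.00239 by edgeR) and 0.52 in FR2 (SE 0.116, adjusted p = 0.000539 by edgeR), under the fold threshold. Against hnCD16 it was 0.16 in FR1 (SE 0.115, adjusted p = 0.205 by edgeR) and 0.24 in FR2 (adjusted p = 0.0599 by edgeR), neither of which passed. Its reads were spread over 7 transcripts whose estimates changed from library to library within a group. The TPM ratio of JAK1 to JAK2 ranged from 5.32 to 9.80 over the CTRL and hnCD16 libraries and from 10.7 to 12.9 over those of FR1 and FR2.

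**Figure D3:**
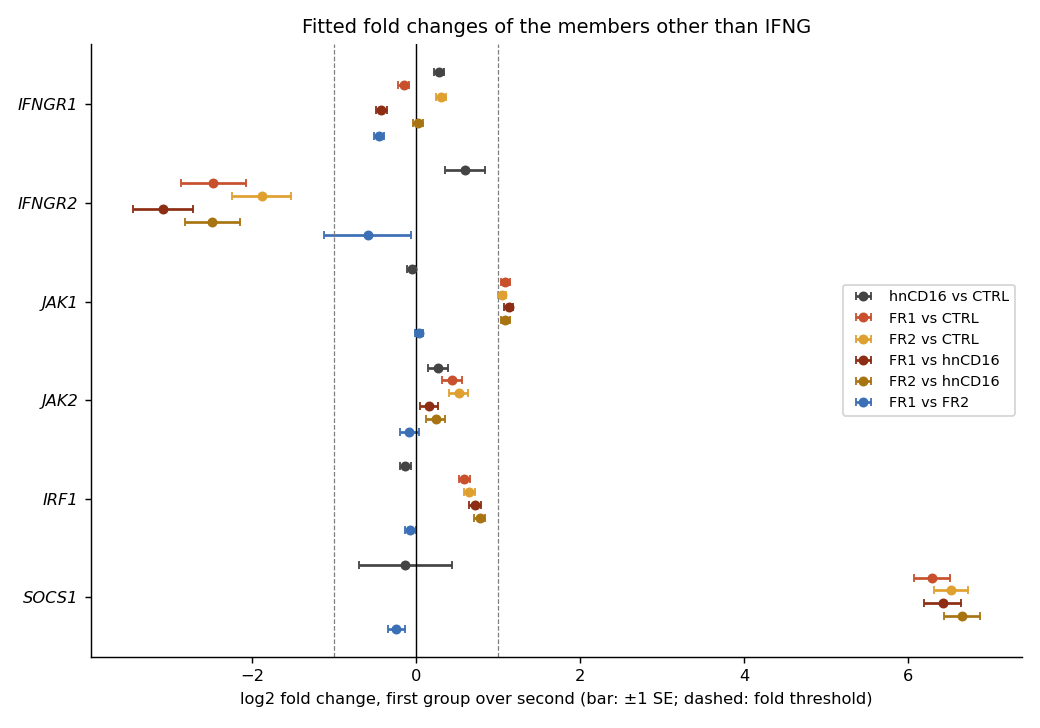
Fitted log2 fold changes (±1 SE) of 6 members in the 6 comparisons, with the fold threshold as dashed lines. IFNG is left out because its fold rests on 2 or 3 reads. SOCS1 lies between 6.29 and 6.66 and IFNGR2 between −1.88 and −3.08 in the 4 comparisons of a fusion group with CTRL or hnCD16, JAK1 lies just past 1, and IRF1, JAK2 and IFNGR1 lie inside the dashed lines.

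IRF1, an early target of the pathway that carries the signal on to antigen presentation genes, was moderately higher in both fusion groups. It was 24.7, 24.3 and 24.7 CPM in CTRL, 23.3, 22.7 and 21.4 in hnCD16, 38.4, 33.6 and 38.7 in FR1, and 36.3, 38.5 and 41.2 in FR2. No library of FR1 or FR2 fell within the range of CTRL or hnCD16. The log2 fold change was 0.59 in FR1 (adjusted p = 2.88e-07 by edgeR) and 0.65 in FR2 (SE 0.0667, adjusted p = 6.34e-08 by edgeR) against CTRL, and 0.72 in FR1 (SE 0.0682, adjusted p = 2.55e-08 by edgeR) and 0.78 in FR2 (adjusted p = 6.67e-09 by edgeR) against hnCD16. IRF1 was thus clearly apart from the spread between libraries but no DEG. FR1 and FR2 did not differ (adjusted p = 0.468 by edgeR), nor did CTRL and hnCD16 (adjusted p = 0.155 by edgeR).

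The difference in IRF1 was uneven among its 4 listed transcripts. XM_011543379, a predicted transcript, had 86.7, 105 and 49.2 estimated counts in CTRL, 58.0, 33.6 and 0 in hnCD16, 212, 202 and 252 in FR1, and 248, 308 and 248 in FR2. This amounted to 34.6% ± 2.68 of IRF1 in FR1 and 39.3% ± 5.48 in FR2, against 16.5% ± 6.01 in CTRL and 7.18% ± 6.81 in hnCD16 (SD, n = 3). The other IRF1 transcripts summed to 24.1 ± 2.09 CPM in FR1 and 23.5 ± 3.11 in FR2, against 20.5 ± 1.62 in CTRL and 20.8 ± 0.634 in hnCD16. Estimated shares also moved between CTRL and hnCD16, where IRF1 as a whole did not pass. There NM_002198 averaged 56.8% ± 2.49 of IRF1 for hnCD16 and 33.3% ± 5.67 for CTRL, without overlap of the libraries. Its mean share was 31.7% for FR1 and 33.1% for FR2, near that of CTRL. A shift in the split was thus not limited to the fusion groups. XM_011543379 was set against the others, and NM_002198 was named, after their values were seen. Shared reads are divided among transcripts by estimation, and the split was therefore not tested. IRF1 lies on the minus strand at chr5:132440440-132508719. On the opposite strand GENCODE has IRF1-AS1, which shares 48263 bases and is not listed in the table. The protein-coding gene ENSG00000283782 shares 68280 bases on that strand. Without strand, reads of these genes could be mixed with those of IRF1.

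The promoter window of IRF1 (RefSeq, GRCh38.p14, minus strand, chr5:132490774-132491023) is shown with the letters TTCNNNGAA in capitals, since IRF1 is the member best known as a direct target of the pathway.

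IRF1: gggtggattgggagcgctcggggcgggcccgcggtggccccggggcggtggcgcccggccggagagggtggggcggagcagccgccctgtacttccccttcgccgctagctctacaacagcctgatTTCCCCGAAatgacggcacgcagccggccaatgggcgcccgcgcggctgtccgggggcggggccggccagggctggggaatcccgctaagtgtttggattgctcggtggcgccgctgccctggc

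The match TTCCCCGAA starts 124 bases before the start of IRF1. Of the 13 promoter windows that RefSeq gives for the 7 members, those of IFNG and IRF1 held TTCNNNGAA. No window of IFNGR1, IFNGR2, JAK1, JAK2 or SOCS1 held these letters, which says nothing of binding elsewhere.

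SOCS1, the inhibitor of JAK1 and JAK2, was the member with the next largest change after IFNG. Its counts were 10, 6 and 4 in CTRL, 8, 6 and 3 in hnCD16, 511, 377 and 503 in FR1, and 601, 560 and 507 in FR2. CTRL and hnCD16 overlapped near the floor, and FR1 and FR2 overlapped with each other between 377 and 601 counts. The log2 fold change was 6.29 in FR1 (adjusted p = 1.2e-14 by edgeR) and 6.52 in FR2 (SE 0.209, adjusted p = 4.79e-15 by edgeR) against CTRL, and 6.42 in FR1 (SE 0.222, adjusted p = 1.47e-14 by edgeR) against hnCD16. From the summed counts SOCS1 was 79.7-fold higher in FR1 than in CTRL (counting interval 51.4 to 131) and 87.5-fold higher than in hnCD16 (54.5 to 151), and in FR2 93.8-fold (60.6 to 154) and 103-fold (64.2 to 177) higher. FR1 stood below FR2 by 0.24 on the log2 scale, which did not pass (adjusted p = 0.0902 by edgeR).

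SOCS1 (chr16:11254417-11256204, minus strand) lies within RMI2 on the opposite strand in GENCODE, so without strand their reads could be mixed. RMI2 had 309 to 430 counts in CTRL and hnCD16 and 115 to 186 in FR1 and FR2, lower where SOCS1 was higher. The promoter window of SOCS1 (RefSeq, GRCh38.p14, minus strand, chr16:11256205-11256454) is shown with capitals for an IRF element, written as a pair of GAAA runs 2 bases apart, because IRF1 and SOCS1 were higher in the same libraries.

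SOCS1: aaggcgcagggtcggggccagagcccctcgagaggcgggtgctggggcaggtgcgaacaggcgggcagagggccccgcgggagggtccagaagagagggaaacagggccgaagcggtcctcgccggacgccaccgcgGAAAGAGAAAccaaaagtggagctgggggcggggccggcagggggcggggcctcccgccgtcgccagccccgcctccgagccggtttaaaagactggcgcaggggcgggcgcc

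The match GAAAGAGAAA starts 113 bases before the SOCS1 start. Such a pair, on either strand, occurred in 3.02% of all windows, and SOCS1 was the single member that held it. The motif was chosen after values had been seen, and a link between IRF1 and SOCS1 was not tested. For FR1 against hnCD16, 18.7% of all tested genes were higher as DEGs, and IRF1 was not among them.

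Read per transcript length, the order of the members changed with the group. In CTRL the highest were IFNGR1 at 30.9 TPM and JAK1 at 29.7, followed by IRF1 at 16.0 and JAK2 at 3.74, with IFNGR2 at 1.17, SOCS1 at 0.547 and IFNG at 0.0567. In hnCD16 the order was the same, with IFNGR1 at 33.6 and JAK1 at 25.8. In FR1 IFNG led at 348 ± 22.1 TPM (SD, n = 3), before JAK1 at 54.1, SOCS1 at 37.8, IFNGR1 at 23.8, IRF1 at 23.3 and JAK2 at 4.32, and IFNGR2 was last at 0.133. In FR2 IFNG stood at 328 ± 3.41, JAK1 at 53.0, SOCS1 at 44.8 and IFNGR2 at 0.24. The member that led FR1 and FR2 was the one with the fewest reads in CTRL and hnCD16.

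Counted over the members, 4 of 7 were DEGs for FR1 against CTRL, where 38.0% of the 13657 tested genes were. These were IFNG, JAK1 and SOCS1, which were higher as were 18.3% of all genes, and IFNGR2, which was lower as were 19.7%. The same 4 genes were DEGs with the same direction for FR2 against CTRL (38.2% of all genes, 18.7% higher and 19.6% lower), for FR1 against hnCD16 (38.3%, 18.7% higher and 19.6% lower) and for FR2 against hnCD16 (39.5%, 19.6% higher and 19.9% lower). These comparisons share libraries and are not independent of each other. By the adjusted p alone, 7 of 7 members were called for FR1 against CTRL (79.9% of all genes), 7 for FR2 against CTRL (80.2%), 6 for FR1 against hnCD16 (79.1%) and 5 for FR2 against hnCD16 (80.1%), shares that lie around the background. By edgeR, 0 of 7 members were DEGs for hnCD16 against CTRL (0.527% of all genes) and for FR1 against FR2 (1.93%). By the adjusted p alone, IFNGR1 was called in each of these, where 43.0% and 36.2% of all genes were.

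Genes around the pathway were described from lists put together with earlier results of these data known. Of 22 signalling genes, 11 rose and 1 (SOCS2) fell as DEGs for FR1 against hnCD16 (18.7% of all genes were higher and 19.6% lower), with a median log2 fold change of 0.99 against −0.01 over all tested genes, and 10 rose and 1 (PTPN6) fell for FR2 against CTRL (18.7% and 19.6%), with a median of 0.91 against −0.04. SOCS3, an inhibitor mainly of gp130 receptors, had 2165 to 2366 counts per library in FR1 and 3096 to 3362 in FR2, and 0 to 7 elsewhere. It was the single pathway DEG for hnCD16 against CTRL (adjusted p = 0.00924 by edgeR), where the sums were 14 and 2 reads and their ratio was 7.5 (1.72 to 68). CISH, a SOCS family member induced by STAT5, rose by 2.58 on the log2 scale for FR1 against hnCD16, and PRKCD, a protein kinase C, rose from 20 to 217 summed counts, a ratio of 11.6 (7.33 to 19.4). PTPN2, a phosphatase that acts on JAK1, was lower in FR1 and FR2 but under the fold threshold, at −0.69 for FR1 against hnCD16 (adjusted p = 3.22e-10 by edgeR) and −0.50 for FR2 against CTRL (adjusted p = 3.1e-08 by edgeR).

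Of 35 IFN-γ-inducible genes, 34 were in the table and 29 were tested. For FR1 against hnCD16, 21 rose and 2 (APOL3 and IFI30) fell, against 18.7% and 19.6% of all genes, and the median log2 fold change was 2.58 against −0.01 over all genes. For FR2 against CTRL 22 rose and 3 (these and WARS1) fell, against 18.7% and 19.6%, with a median of 2.84 against −0.04. GBP2, a guanylate-binding protein of cell-autonomous defence, had 4 to 7 counts per library in CTRL and hnCD16 and 14684 to 15319 in FR1 and FR2. GBP1 rose by 2.96 for FR1 against hnCD16 and by 3.07 for FR2 against CTRL. CIITA, the master regulator of MHC class II, rose by 3.32 and 3.85, and its targets HLA-DRA and CD74 went from 1 to 9 counts per library in CTRL and hnCD16 to 9464 to 14523 and 5242 to 10485. HLA-DRA belongs to a family of similar genes whose shared reads the counting could divide. TAP1, the peptide transporter, rose by 2.58 and 2.84, PSMB9, an immunoproteasome subunit, by 1.34 and 1.74, and ICAM1, an adhesion molecule, by 3.72 and 3.37. IRF8, a myeloid and B cell factor also induced by IFN-γ, went the other way, with 4 to 12 counts per library in CTRL and hnCD16 and 0 or 1 in FR1 and FR2, and was not tested. Other genes of the list stayed low. IDO1 had 4 to 23 counts per library over all groups. CXCL10 had 0 in CTRL and hnCD16 and 6 to 16 in FR1 and FR2, and CXCL11 had at most 5 in any library. IDO1, CXCL10 and CXCL11 were named after their values were seen.

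Known regulators of IFNG transcription were described in the same way. Of 27 listed, 26 were tested, and 19 rose and 3 fell for FR1 against hnCD16 with a median log2 fold change of 4.3 against −0.01 over all genes, while 18 rose and 3 fell for FR2 against CTRL with a median of 4.47 against −0.04, beside 18.7% of all genes higher and 19.6% lower in each comparison. RUNX1, GATA3 and NFATC1 fell in each. The genes that fell in these lists were named after their values were seen. TBX21 (T-bet), the factor that drives IFNG in NK and Th1 cells, had 0 to 4 counts per library in CTRL and hnCD16 and 1224 to 1439 in FR1 and FR2. EOMES, its paralog, was read in all groups, at a mean of 16.8 CPM in FR1 and 20.3 in FR2 against 9.58 in CTRL and 6.45 in hnCD16. It rose by 1.38 for FR1 against hnCD16. Its rise for FR2 against CTRL lay under the fold threshold when libraries were scaled by total counts (0.96) or TPM was tested with limma (0.87 and 0.96). IRF4 had 5 to 13 counts per library in CTRL and hnCD16 against 12405 to 13428 in FR1 and FR2, and PRDM1, the gene of Blimp-1, 0 to 2 and 1152 to 1320. The receptors for IL-12 and IL-18, cytokines that together induce IFN-γ, rose as well. IL12RB1 rose by 2.29 and IL12RB2 by 4.34 for FR1 against hnCD16, while IL18R1 and IL18RAP had 0 or 1 count in each CTRL and hnCD16 library and 305 to 406 and 152 to 256 in FR1 and FR2. STAT4, which carries the IL-12 signal, had 92 to 163 counts per library in FR1 and FR2 and at most 1 elsewhere. TBX21, EOMES and IL2RB, a regulator of the same list, are also on the NK marker list used above. Over the 3 lists together, 57 of 77 tested genes were DEGs for FR1 against hnCD16 (74.0%, against 38.3% of all genes) and 57 for FR2 against CTRL (74.0%, against 38.2%), and 0 for FR1 against FR2 by edgeR, where 1.93% of all genes were DEGs. By the adjusted p alone 32 of the 77 were called there, beside 36.2% of all genes. Genes with few reads in CTRL and hnCD16 passed the filter on low counts only through the FR1 and FR2 libraries. Among them were SOCS3, GBP2, HLA-DRA, CD74, TBX21, STAT4, PRDM1, IL18R1 and IL18RAP, whose rise was thus set by that filter. NFATC1 and IFI30 passed only through CTRL and hnCD16. The counts and medians of the lists are therefore a description and no test.

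**Figure D4:**
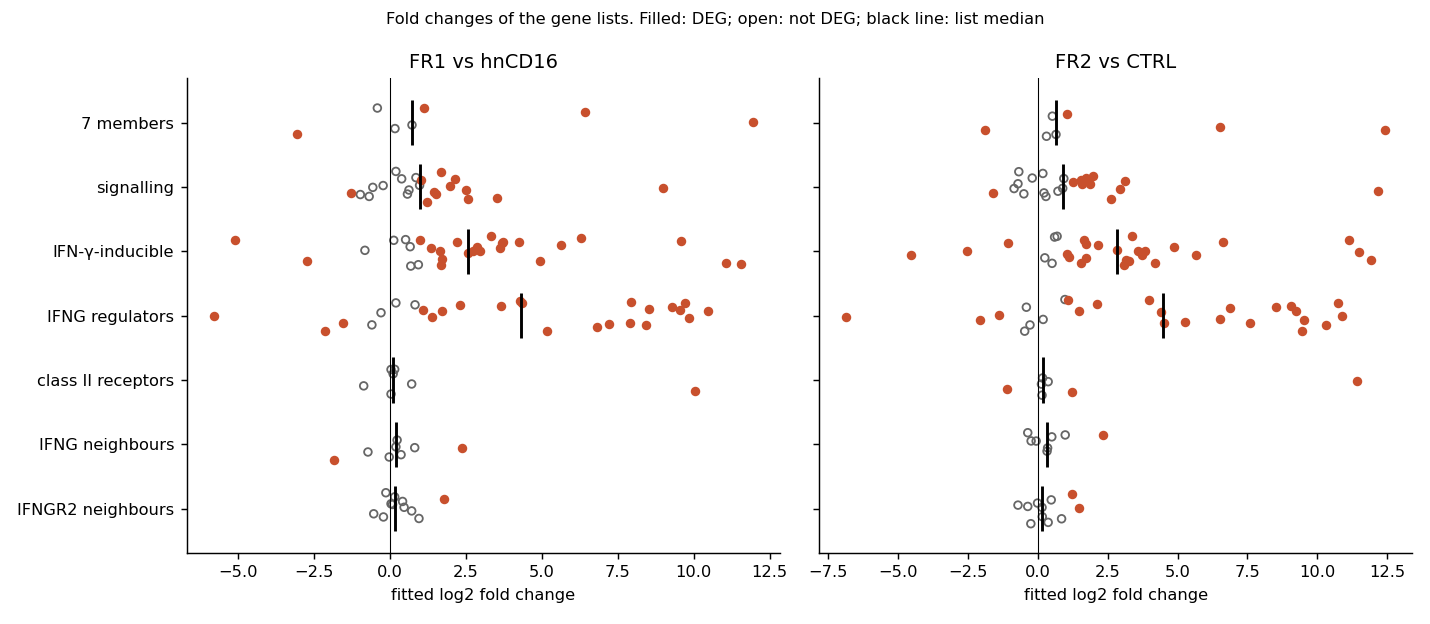
Fitted log2 fold changes of the genes of each list for FR1 against hnCD16 and for FR2 against CTRL, which share no library, with DEGs filled and the list median as a black line. Genes with almost no reads in CTRL or hnCD16 sit at the far right, where the fitted value depends on the small count added by the fit, and the median lies at 2.58 and 2.84 in the inducible genes and at 4.3 and 4.47 in the IFNG regulators.

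No tested neighbour of IFNGR2 fell as a DEG for FR1 against hnCD16 or for FR2 against CTRL. Among all genes 19.6% fell in each. The IFNGR2 locus holds a cluster of class II cytokine receptors. IFNAR1 and IFNAR2, the chains of the type I interferon receptor, start 79.0 kb and 198 kb before IFNGR2, and for FR1 against hnCD16 their log2 fold changes were 0.15 (adjusted p = 0.0156 by edgeR) and 0.03 (adjusted p = 0.572 by edgeR). IL10RB, 137 kb before it, was higher by 0.71 for FR1 against hnCD16, under the fold threshold, and rose by 1.24 for FR2 against CTRL (adjusted p = 3.31e-12 by edgeR). Of 11 tested neighbours, 1 was a DEG for FR1 against hnCD16, DNAJC28, which was higher at 91 against 28 summed counts, where 38.3% of all genes were DEGs. That call was lost under limma on log2(TPM + 1), at 0.88, as was that for FR2 against CTRL, at 0.74. Besides IFNGR1 and IFNGR2, 7 class II receptor genes were tested. For FR1 against hnCD16, IL10RA, on another chromosome, rose from 2 to 2327 summed counts and none fell. Of all genes, 18.7% were higher and 19.6% lower as DEGs there. For FR2 against CTRL, IL10RA and IL10RB rose and IL20RB, named after its values were seen, fell from 161 to 66 summed counts. In that comparison 18.7% of all genes were higher and 19.6% lower as DEGs, so these few genes do not set the list apart.

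Of the cytokine genes beside IFNG, none rose. IL26, which starts 66.1 kb from IFNG, had 5 to 14 counts per library in FR1 and 16 to 38 in FR2, where CTRL and hnCD16 libraries had 25 to 45. It fell for FR1 against hnCD16 (log2 fold change −1.85, SE 0.355, adjusted p = 0.000122 by edgeR) and was a DEG between the fusions (−1.26 for FR1 against FR2, SE 0.386, adjusted p = 0.0169 by edgeR), a call lost without FR1 replicate 3 (−0.95, adjusted p = 0.0789 by edgeR) or without FR2 replicate 1 (−0.88, adjusted p = 0.114 by edgeR). For FR2 against CTRL it was −0.24 (adjusted p = 0.481 by edgeR). IL22, 93.9 kb away, had at most 1 count in each library. MDM2, the p53 inhibitor that starts 648 kb from IFNG, was the single neighbour of 8 tested that rose for FR1 against hnCD16 (2.38, adjusted p = 4.96e-17 by edgeR), where 18.7% of all genes rose.

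The genes whose pattern was most like that of a member were found by Pearson's r of log2(CPM + 1) over the 12 libraries, which form separate clusters. For IFNG and SOCS1, r thus mainly measures a shared difference between the 6 libraries of CTRL and hnCD16 and the 6 of FR1 and FR2. For IFNG these were CYRIA and TTC12 (r = 0.9999 each) and HOXA9 (r = 0.9998), and 982 of 13656 genes reached an r of 0.99. For SOCS1 they were LSP1 and SLC2A8 (r = 0.9992 each) and PIK3AP1 (r = 0.9991), with 961 genes at 0.99 or more. For IFNGR2 they were VPS26A and DDX58 (r = 0.9901 each) and MDM1 (r = 0.9891), and 2 genes reached 0.99. IFNGR2 had 1 to 34 reads per library, so counting error and the added 1 weigh on its r. Its number of genes at 0.99 is therefore not comparable with those of IFNG and SOCS1. MDM1 lies 173 kb from IFNG and had 1305 to 1663 counts per library in CTRL and hnCD16 and 853 to 985 in FR1 and FR2. The points share library depth and scaling, and r is given as a description.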

How the data were processed

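RNA-seq of 12 libraries of transduced YT cells was analysed, 3 in each of 4 groups named by the sample labels. The labels name both ribosomal RNA depletion and oligo(dT) enrichment. The authors mapped reads to GRCh38 and quantified them. The deposited expected counts are RSEM estimates per gene and per transcript without normalization, and the deposited TPM values were made by the authors with RSEM and scale each library by transcript length and depth. The submitters' processing notes name HISAT2 2.1.0, Bowtie2 2.3.4.3, RSEM 1.3.1 and DESeq2 1.4.5. Strand use in counting is not given in the sources used here. FPKM, normalized count and group average columns and the authors' comparisons were not used here.

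Expected counts were rounded and tested with edgeR 4.0.16 (R 4.3.3) in a single model of all 4 groups, using TMM factors and quasi-likelihood F-tests. Of 17589 genes, 13657 passed filterByExpr and were tested, with Benjamini-Hochberg adjustment within each of 6 comparisons. The SE was derived from the test statistic. CPM was scaled by TMM factors, and levels between genes were compared in TPM. Ratios of summed counts, given for genes with few reads in a group, carry an exact conditional 95% interval for counting error only, and which genes got one was set after counts were seen, as were the motifs and the IRF1 transcript split. The step was tested on simulated data, where 199 of 200 changed genes were called in a simulated comparison of FR1 against hnCD16 over 13386 genes. The simulated log2 fold change was 2 in either direction, with a constant dispersion. It was a check of the code and does not cover folds near the threshold or genes with few reads in a group. Pairs of replicates differed by more than sampling noise (chi-square per gene 2.08 to 12.7). Alternatives were DESeq2 1.42.0, limma 3.58.1 on TPM, other scalings and filters, a replicate block, fits of only the 2 groups compared, no fold threshold and leaving out each library.

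The members and lists were chosen with earlier results of these data known. Besides the members, the text names per list the 3 DEGs of largest absolute log2 fold change for FR1 against hnCD16 with a mean of at least 1 CPM, genes chosen for their known role whatever their values, and the 3 genes most like IFNG, IFNGR2 and SOCS1. RMI2, TMEM50B, IDO1, CXCL10, CXCL11, the genes that fell in a list and single markers were named after their values were seen. A gene the rule names is not reported here. Gene positions are from GENCODE v44, promoters from RefSeq, and motifs were searched in the 250 bases before each start. Figures were drawn with matplotlib 3.10.9.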

Additional observations from a re-analysis of the deposited data

How the results depend on the processing

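With DESeq2, RLE normalization, no count filter or a fit restricted to the compared groups, the number of DEGs among the 7 members was that of the text, and leaving out a library gave 4 in each comparison of a fusion group with CTRL or hnCD16 and 0 in the others. A filter of at least 10 counts in every library removed IFNG, IFNGR2 and SOCS1 by its construction and left 1 member DEG for FR1 and for FR2 against CTRL and against hnCD16. Limma on log2(TPM + 1) left 2 for FR1 and 2 for FR2 against CTRL, where IFNGR2 stood at −0.93 and −0.80 and JAK1 at 0.84 and 0.81. Scaling by total counts and limma on log2(TPM + 0.1) left 3 there, without JAK1. Without the fold threshold the member counts were 7 for FR1 and 7 for FR2 against CTRL, 1 for hnCD16 against CTRL and 1 for FR1 against FR2. Among the pathway lists, the 1 DEG for hnCD16 against CTRL (SOCS3) became 0 under limma on log2(TPM + 1), under the filter of 10 counts and in the fit of the 2 groups, and 33 without the fold threshold. For FR1 against FR2 the pathway count of 0 became 1 without a filter on low counts and 32 without the fold threshold. Apart from the dropped thresholds and genes, the cause of these changes was not tested.

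Signs changed only for values that were not DEGs. For hnCD16 against CTRL, IFNG ranged from −0.26 (without hnCD16 replicate 2) to 1.13 with a library left out, and SOCS1 from −0.46 to 0.28 (without CTRL replicate 1), with 0.18 without hnCD16 replicate 3. IFNGR1 for FR2 against hnCD16 was −0.02 under limma with either pseudocount, and JAK1 for FR1 against FR2 was −0.02 by total counts, −0.01 without FR1 replicate 3 and −0.01 without FR2 replicate 3, in a range up to 0.05. Among other genes, IL26 for FR2 against CTRL ranged from −0.64 to 0.01 (without FR2 replicate 2), IFNAR1 for the same comparison, at an adjusted p of 0.02 by edgeR in the text's fit, was −0.01 under limma with either pseudocount, and IFNAR2 for FR1 against hnCD16 −0.05 by total counts and −0.06 under limma. IL26 for FR1 against FR2 was −0.76 under limma on log2(TPM + 1). IRF1 for FR2 against hnCD16 passed the fold threshold under limma on log2(TPM + 0.1), at 1.05. In 1783 refits of the other named genes in comparisons whose values are not printed, the sign changed in 36, none of them a DEG.

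Over all genes, DEGs for FR1 and FR2 against CTRL and against hnCD16 numbered 5195, 5222, 5234 and 5393 in the text, 2966, 2965, 2992 and 3150 under the filter of 10 counts, which tested 10758 genes, and 10912, 10947, 10799 and 10946 without the fold threshold. For hnCD16 against CTRL the number was 72, with DESeq2 32, under limma on log2(TPM + 1) 6, under the filter of 10 counts 8 and without the fold threshold 5872. For FR1 against FR2 it was 264, and 58, 73 and 4939 under limma, the filter and no fold threshold.

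Same-numbered libraries did not deviate together in every pair (mean correlation of deviations −0.0297 to 0.131 over the comparisons). Every library correlated best with its own number in 2 of 6 comparisons, hnCD16 against CTRL and FR2 against hnCD16. The numbers were not treated as pairs, and these weak correlations over 3 libraries per group cannot exclude a shared batch. Blocking on the replicate number gave member counts of 4, 4, 4 and 4 for the fusion groups and 0 and 0 for hnCD16 against CTRL and FR1 against FR2.

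Depth limits IFNGR2, with 1 to 34 reads per library, and the folds of IFNG and SOCS3, whose lower groups hold 2 to 14 reads in all.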
